A study of Mus musculus with 3 samples.

Results

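The genes described here encode the proteasome, the immunoproteasome and the factors that assemble, activate or inhibit them. The rule that chose them used gene names and no values. It took the protein-coding genes whose mouse symbol is Psma, Psmb, Psmc, Psmd, Psme, Psmf or Psmg followed by a number and nothing else. Earlier results of these data were known when it was set. All 48 such genes were in the count tables, of 50600 genes in all and 21764 protein-coding genes. RNA was measured by RNA sequencing in 3 libraries of mouse T-helper 1 (Th1) cells, the CD4 helper T cells that make interferon-gamma. The cells were primary cells of strain C57BL/6NJ, with a linked protocol for differentiating CD4 T cells, and the labels name neither an allele nor a drug and give age and development stage as unknown. The libraries, numbered as biological replicates 1, 2 and 3, have separate biosample entries and 1 donor entry. Nothing says that they came from separate animals, so p-values refer only to the spread between these libraries, which may be partly technical. The series has 1 group, so levels were compared between genes within a library and between the replicates.

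The proteasome is the protease that removes ubiquitin-tagged proteins from the cytosol and the nucleus. Its 20S core is a barrel of outer alpha rings, which gate the entrance, and inner beta rings, which hold the peptidase sites. The 19S regulator caps the barrel, binds ubiquitin chains, removes them and unfolds the substrate with a ring of ATPases. Lymphocytes and cells exposed to interferon-gamma also make an immunoproteasome, in which Psmb8, Psmb9 and Psmb10 replace the standard peptidases Psmb5, Psmb6 and Psmb7, and which favours peptides that fit MHC class I molecules. Under proteasome shortage the transcription factor NRF1, encoded by Nfe2l1, raises the genes of the standard particle through antioxidant response elements.

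The libraries held 4442901, 3123869 and 2950658 counts in replicates 1, 2 and 3. The proteasome genes took 0.371% of counts in replicate 1 (exact 95% interval 0.365 to 0.377), 0.215% in replicate 2 (0.210 to 0.221) and 0.257% in replicate 3 (0.251 to 0.262). Intervals and floors here cover counting error only. The labelled cell type was checked with marker lists. All 11 CD4 T cell markers reached 1 TPM, the count per exon base scaled to the same total in each library, in all 3 libraries, and their median was 150 ± 48.5 TPM (SD, n = 3). Only 4 of 8 Th1 markers did, and Ifng had 1, 2 and 0 counts. Of the CD8 T cell pair, Cd8a had 2, 1 and 0 counts and Cd8b1 34, 16 and 10. Of the other markers, 5 of 6 B cell genes, 3 of 4 NK cell genes and 3 of 10 macrophage and dendritic cell genes had no count in any library. The summed level of the B cell list ranged from 27.0 to 48.7 TPM, all of it Cd79a, and that of the macrophage and dendritic cell list from 145 to 191 TPM, mostly Csf1r, whose exons overlap those of Hmgxb3 on the other strand. The part of such cells in the results was not tested. In bulk samples, fewer cells of a type and less RNA per cell cannot be told apart.

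Some of these genes share exon positions with a gene read from the opposite strand. They are called opposed here, and genes whose span meets no opposite-strand gene are called unopposed. Reads of an opposed pair share positions and are told apart by strand alone, so opposed genes are named as such beside their values. The headers record strand setting 1, and whether it fits the strand of these libraries was not tested. The values of all genes, unopposed genes and markers included, rest on that setting. Of the 48 proteasome genes 11 were opposed (22.1% of all protein-coding genes were), 31 were unopposed and 6 overlapped such a gene without sharing exon bases. Opposed genes of all kinds held 55.1%, 69.1% and 67.3% of counts in replicates 1, 2 and 3. This share was lowest in the library where the proteasome genes were highest.

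The start regions of the catalytic subunits are shown because these genes carry the comparison of standard with immune subunits. RefSeq promoter windows on GRCm38.p6, from 250 bases before to 50 after a start, were matched for 40 of the 48 genes, in 43 windows. Psma8, Psmb1, Psmb2, Psmb7, Psmc3, Psmd3, Psmd7 and Psmg2 had none. The sequences run 5′ to 3′ on the strand of the gene, stop before any exon in the count tables' gene models, and have motif matches in capitals.
Psmb5: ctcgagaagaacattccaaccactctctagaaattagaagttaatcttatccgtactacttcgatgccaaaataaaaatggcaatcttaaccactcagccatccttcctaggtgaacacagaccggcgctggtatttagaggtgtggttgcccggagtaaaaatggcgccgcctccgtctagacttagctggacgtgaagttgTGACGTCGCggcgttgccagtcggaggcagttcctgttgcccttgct
Psmb6: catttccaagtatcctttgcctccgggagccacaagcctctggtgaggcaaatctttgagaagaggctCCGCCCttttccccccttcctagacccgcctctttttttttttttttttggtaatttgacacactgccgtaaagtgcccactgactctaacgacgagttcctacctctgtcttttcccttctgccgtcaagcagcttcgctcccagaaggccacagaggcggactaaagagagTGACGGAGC
Psmb10: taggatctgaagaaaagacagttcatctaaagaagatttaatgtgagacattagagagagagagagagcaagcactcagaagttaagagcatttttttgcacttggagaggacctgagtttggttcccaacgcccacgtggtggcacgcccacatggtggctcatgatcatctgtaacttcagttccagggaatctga
The first is chr14:54617996-54618245 (minus strand), the second chr11:70525107-70525356 (plus strand) and the last chr8:105938445-105938642 (minus strand). The capitals in Psmb5 and at the end of the Psmb6 stretch mark TGACNNNGC, the core of the antioxidant response element, and the earlier capitals in Psmb6 mark the reverse complement of GGGCGG, the GC box. In Psmb10 none of the motifs searched was found in the stretch shown.

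For Psmb8 and Psmb9 the window overlaps annotated exons, so only sites of 30 bases are shown, at chr17:34198087-34198116 (plus strand) and chr17:34187368-34187397 (minus strand).
Psmb8: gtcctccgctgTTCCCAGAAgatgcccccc
Psmb9: tgcgcgatgatgGGGCGGggcctcagtctg
The capitals mark TTCNNNGAA, the gamma-activated site bound by STAT factors, in Psmb8 and GGGCGG in Psmb9. The RefSeq starts of Psmb9 and of Tap1, a subunit of the peptide transporter that feeds MHC class I, lie head to head on chromosome 17 with 225 bases between them, so their windows overlap.

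The motifs were searched on both strands of all 32851 windows. TGACNNNGC was in 6 of 43 proteasome windows, and in 12.4% of all windows. The 6 were Psmb5, Psmb6, Psmc6, Psmd9, Psmd12 and Psme4, a share near that of all windows. The stricter forms TGACTCAGC, which TGACNNNGC includes, and TGAGTCAGC were in no proteasome window and in 0.454% and 0.414% of all windows. The core of the interferon-stimulated response element, a pair of TTTC runs with 2 bases between, was in 5 proteasome windows (11.6%, against 3.44% of all), those of Psmb3, Psmd4, Psmd9, Psme1 and Psmg4. TTCNNNGAA was in 3 (6.98%, against 8.30%), CCAAT in 14 (32.6%, against 37.4%) and GGGCGG in 24 (55.8%, against 35.7%). A match is a run of letters, not a bound site.

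The proteasome genes were detected almost as a whole. In every library 45 of the 48 reached 1 TPM, where 38.7% of all protein-coding genes did. Their median was 50.1, 23.1 and 27.2 TPM in replicates 1, 2 and 3, a mean of 33.5 ± 14.5 TPM (SD, n = 3). The median over all protein-coding genes was 0.252 ± 0.0511 TPM, and over the 7911 that passed the count filter 12.6 ± 4.04 TPM. Over unopposed proteasome genes the median was 44.5 ± 19.9 TPM, over opposed ones 28.7 ± 10.5 TPM. The exon length behind TPM is that of all gene models joined, which was longer than the principal transcript for most of these genes, and the order of levels within a subcomplex can depend on it. Levels per base of the principal transcript, on the same library scale, are given below for genes whose order they change, but not for all such genes.

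**Figure D1:**
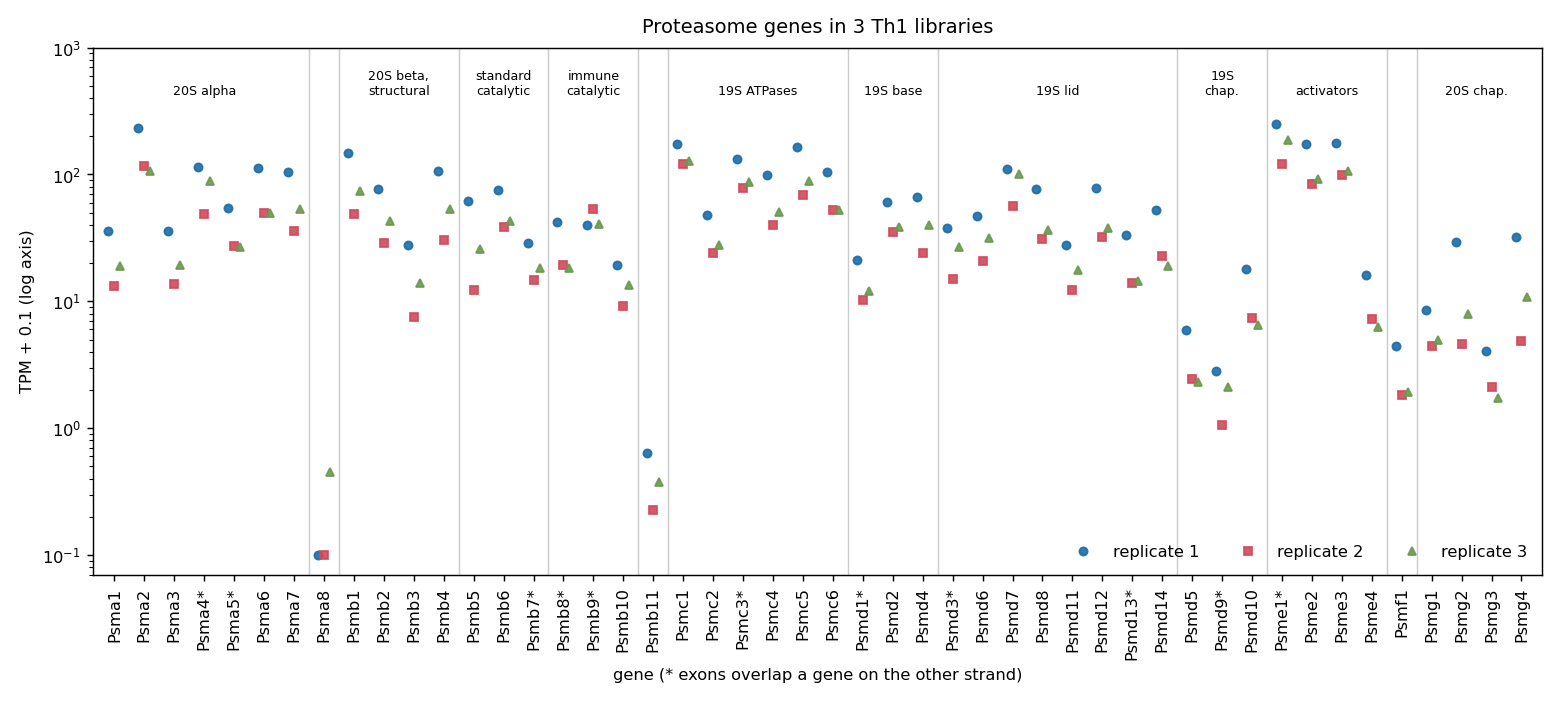
TPM plus 0.1 (log axis) of the 48 proteasome genes in each of 3 Th1 libraries, grouped by subcomplex; an asterisk marks opposed genes. Circles (replicate 1) lie above the other symbols for 46 of the 48 genes, the exceptions being Psmb9 and Psma8.

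The alpha ring genes, which form the gated ends of the core, all exceeded 10 TPM in every library. Psma2 was the highest of them, at 233, 116 and 107 TPM in replicates 1, 2 and 3, or 152 ± 70.6 TPM (mean ± SD, n = 3). Its exon length in the count tables was 944 bases, against 2911 bases for the principal transcript of a later annotation, so its level per base depends on the model used. Per base of the principal transcripts Psma7 led at 217 ± 119 and Psma2 stood at 49.3 ± 22.9, with Psma3 lowest at 31.2 ± 15.5. Psma1 was the lowest, at 35.4, 13.2 and 18.8 TPM, with the next lowest, Psma3, at 35.4, 13.6 and 19.4 TPM, and this pair did not differ beyond its spread. Psma4, which AY074887 opposes, had a mean of 83.9 ± 33.2 TPM, Psma6 70.1 ± 36.2, Psma7 64.4 ± 35.6 and the opposed Psma5 36.0 ± 15.8 TPM. In each of the 7 the level of replicate 1 was above both other libraries. Psma8, the alpha subunit of male germ cells, had 0, 0 and 1 counts and so stayed below the limit of 3 counts throughout.

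Among the beta subunits without a peptidase site, Psmb1 was highest and Psmb3 lowest by the joined exon length. Per base of the principal transcripts Psmb4 led at 105 ± 64.8 and Psmb1, at 52.8 ± 29.9, was close to Psmb3 at 48.9 ± 31.0 (SD, n = 3). Psmb1 stood at 146, 48.9 and 73.3 TPM in replicates 1, 2 and 3, and Psmb4 at 107, 30.3 and 53.7 TPM. Psmb2 followed with 76.3, 28.8 and 43.1 TPM, and Psmb3 with 27.6, 7.42 and 13.8 TPM. These 4 unopposed genes had 1 order of libraries, with replicate 1 highest, then replicate 3, then replicate 2.

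The 3 standard peptidases had a median of 33.9 ± 24.4 TPM (SD, n = 3). Psmb5, the chymotrypsin-like subunit, had 61.4, 12.2 and 25.7 TPM in replicates 1, 2 and 3, on average 33.1 ± 25.4 TPM (SD, n = 3), from 117, 20 and 38 counts. Psmb6, the caspase-like subunit, had 75.9, 38.7 and 43.1 TPM, a mean of 52.6 ± 20.3 TPM. Psmb7, the trypsin-like subunit, had 28.6, 14.6 and 18.3 TPM, a mean of 20.5 ± 7.23 TPM. Per base of the principal transcripts Psmb7, at 60.4 ± 21.3, stood above Psmb5, at 32.1 ± 24.6, and Psmb6 led at 123 ± 47.7. Psmb5 and Psmb6 are unopposed, while the kinase gene Nek6 lies opposite the end of Psmb7 over 405 exon bases.

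The immune peptidases were present in every library. Psmb8, the immune form of the chymotrypsin-like subunit, had 41.8, 19.3 and 18.1 TPM, a mean of 26.4 ± 13.3 TPM (SD, n = 3). Psmb9, the immune form of the caspase-like subunit, had 40.1, 53.6 and 40.2 TPM, a mean of 44.6 ± 7.77 TPM. Psmb10, the immune form of the trypsin-like subunit, had 19.3, 9.07 and 13.5 TPM, a mean of 13.9 ± 5.13 TPM. Psmb8 and Psmb10 were highest in replicate 1, like the standard subunits, whereas Psmb9 was highest in replicate 2. Psmb8 is opposed by Gm20496 and Psmb9 by Tap1, and Psmb10 shares its span, but no exon, with Gm16156 on the other strand. Together the 3 immune genes held 37.9%, 55.5% and 45.2% of the summed TPM of the 6 catalytic genes in replicates 1, 2 and 3, or 40.4%, 51.3% and 41.8% with Psmb9 and Psmb6 left out.

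Each immune subunit was then set against the standard subunit it replaces, as the log2 ratio of TPM plus 0.1 within a library. Every pair holds an opposed gene (Psmb8, Psmb9 or Psmb7), and the part of the overlaps in the ratios was not tested. For Psmb8 to Psmb5 the log2 ratio was -0.55, 0.65 and -0.50 in replicates 1, 2 and 3, on average -0.14 ± 0.68 (SD, n = 3; exact two-sided sign-flip permutation test, p = 1). For Psmb9 to Psmb6 it was -0.92, 0.47 and -0.10, a mean of -0.18 ± 0.70 (n = 3; exact permutation test, p = 0.75). In both pairs the sign differed between libraries, and only replicate 2 had the immune gene higher. For Psmb10 to Psmb7 it was -0.56, -0.69 and -0.44, a mean of -0.56 ± 0.13 (n = 3; exact permutation test, p = 0.25), with the immune gene lower in 3 of 3 libraries. Adjusted over the 3 pairs by Benjamini-Hochberg the p-values were 1, 1 and 0.75, and 0.25 is the smallest unadjusted p that 3 libraries allow.

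The counts give the precision within each library. The ratio of counts per base of Psmb9 to Psmb6 was 0.528 in replicate 1 (exact 95% interval 0.450 to 0.619), 1.38 in replicate 2 (1.13 to 1.70) and 0.934 in replicate 3 (0.755 to 1.16). The intervals of replicates 1 and 2 did not overlap. For Psmb8 to Psmb5 it was 0.680 (0.544 to 0.855), 1.58 (0.968 to 2.69) and 0.704 (0.474 to 1.06). For Psmb10 to Psmb7 it was 0.675 (0.509 to 0.886), 0.619 (0.393 to 0.947) and 0.738 (0.498 to 1.07). The first 2 ratios hang on the length used. With the length of the principal transcript the mean log2 ratios were 0.66 and 0.02, and without length correction 1.51 and 0.78, so the direction turned in both. Without replicate 1 the means were 0.074 and 0.18, and without replicate 3 that of Psmb8 to Psmb5 was 0.049. The mean log2 ratio of Psmb10 to Psmb7 stayed negative, at -1.74 with the principal transcript length and -1.56 without length correction.

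**Figure D2:**
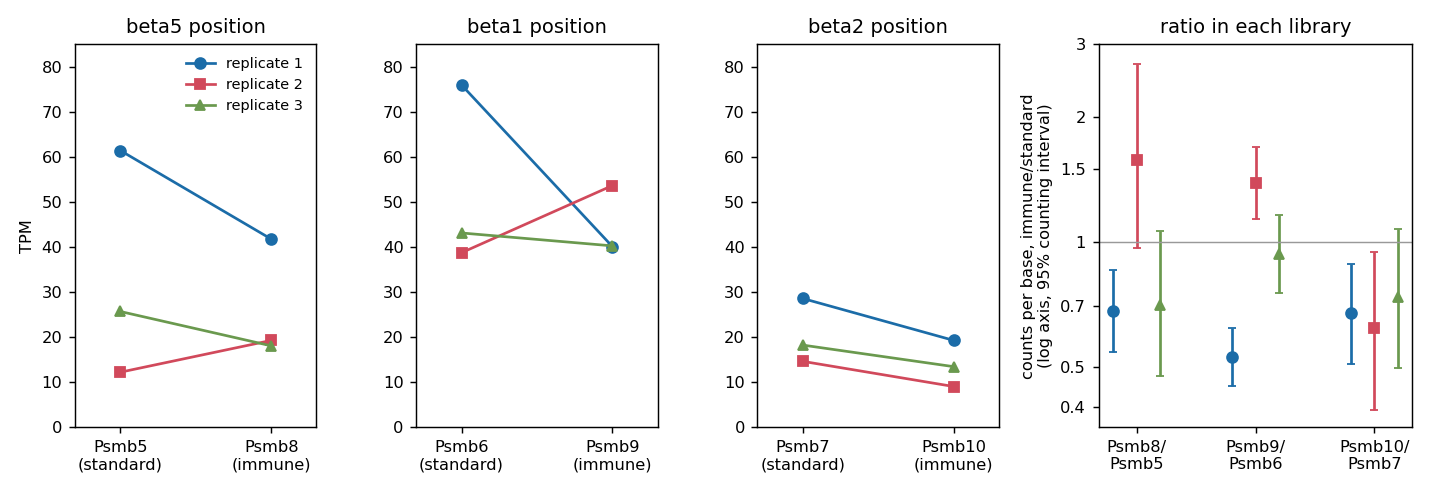
Left, TPM of each standard catalytic subunit and the immune subunit that replaces it, with 1 line per library; right, the ratio of their counts per exon base in each library with its exact 95% counting interval (log axis). The ratio of Psmb10 to Psmb7 lies below 1 in all 3 libraries, at 0.619 to 0.738, and the other 2 ratios lie above 1 in replicate 2 alone.

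Psmb11, the catalytic subunit of the thymic cortical epithelium, had 5, 1 and 2 counts, or 0.538, 0.126 and 0.277 TPM. It is a near neighbour of Psmb5 on chromosome 14 (54625310 to 54629556, against 54614120 to 54617995 for Psmb5).

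The 19S regulator was covered as fully as the core. Each library held all 17 of its subunits at 1 TPM or more. Their median was 45.2 ± 19.1 TPM (SD, n = 3), against 49.6 ± 23.9 TPM for the 14 standard core genes. The median of the 6 ATPases was 83.1 ± 30.9 TPM. Psmc1 led them with 174, 121 and 127 TPM in replicates 1, 2 and 3, and Psmc5 followed with 164, 68.8 and 89.2 TPM. Psmc2 was lowest at 48.0, 23.8 and 27.6 TPM. This order too holds for the joined exon length, since per base of the principal transcripts Psmc3 led at 158 ± 45.3, before Psmc1 at 134 ± 27.5, and Psmc6 was lowest at 49.1 ± 21.3. Psmc1 had the smallest excess of replicate 1 in this ring, while Psmc3, opposed by Slc39a13, had a mean of 99.1 ± 28.4 TPM.

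The base and lid subunits hold the ubiquitin receptors and the deubiquitinase. Psmd4, a ubiquitin receptor, had 66.9, 23.7 and 39.6 TPM, and Psmd2, a scaffold of the base, 61.0, 35.2 and 38.2 TPM. The mean of Psmd2 was the higher in TPM, at 44.8 against 43.4. Per base of the principal transcripts Psmd4 was the higher, at 91.5 ± 46.0 against 61.1 ± 19.2. Psmd1, opposed by Htr2b, was lowest of the base at 14.4 ± 5.86 TPM (SD, n = 3). In the lid, Psmd7, the partner of the deubiquitinase, was highest at 110, 56.8 and 101 TPM, and Psmd14, the deubiquitinase itself, had 31.2 ± 18.2 TPM (SD, n = 3). Psmd11 was lowest of the lid, at 27.7, 12.2 and 17.7 TPM, and the next, the opposed Psmd13 with 33.0, 13.7 and 14.5 TPM, overlapped it in range and was the lower of them per base of the principal transcript (34.7 ± 18.5 against 43.0 ± 17.6). Psmd7 thus stayed high in replicate 3, where Psmd14 was at its lowest.

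The activators had the highest median of the subcomplexes, 122 ± 46.4 TPM (SD, n = 3). They include the PA28 proteins, whose rings open the core without ATP. Psme1 (PA28 alpha) had 248, 121 and 187 TPM in replicates 1, 2 and 3, on average 185 ± 63.6 TPM. Psme2 (PA28 beta), its interferon-inducible partner, had 173, 84.0 and 92.5 TPM, and Psme3 (PA28 gamma), the nuclear form, 177, 98.3 and 106 TPM. Psme4 (PA200), an activator known for acetylated histones, was far lower at 16.0, 7.19 and 6.18 TPM. The log2 ratio of Psme1 to Psme3 was 0.48, 0.30 and 0.81, a mean of 0.53 ± 0.26 (n = 3), higher in 3 of 3 libraries (exact two-sided sign-flip permutation test, p = 0.25), and 0.11 without length correction. The log2 ratio of Psme2 to Psme3 was -0.03, -0.23 and -0.20, a mean of -0.15 ± 0.11 (n = 3), lower in 3 of 3 libraries (exact permutation test, p = 0.25). With principal transcript lengths this mean turned to 0.57, so its direction depends on the length used. Psme1 is opposed by Emc9 over 14 exon bases only. Psmf1 (PI31), described as an inhibitor of the core in the test tube, had 4.33, 1.74 and 1.83 TPM.

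Assembly chaperones had the low medians of 9.89 ± 7.87 TPM for the core and 3.46 ± 2.04 TPM for the base (SD, n = 3). Of those of the core, Psmg4 had 32.2, 4.81 and 10.6 TPM from 39, 5 and 10 counts, and Psmg2 29.3, 4.53 and 7.79 TPM from 68, 9 and 14 counts. Psmg1 had 8.50, 4.36 and 4.82 TPM and Psmg3 3.95, 2.03 and 1.63 TPM. Per base of the principal transcripts the mean of Psmg3, 8.30 ± 4.06, was no longer below that of Psmg1, 7.59 ± 2.92. Psmg2 and Psmg4 were several times higher in replicate 1, on few counts elsewhere. Of the base chaperones, Psmd10 (gankyrin) had 17.7, 7.26 and 6.42 TPM, Psmd5 5.81, 2.36 and 2.20 TPM, and Psmd9, opposed by the lincRNA Gm26745, 2.71, 0.956 and 2.03 TPM. Psmd9 was the only gene besides Psma8 and Psmb11 under 1 TPM in any library.

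Genes of the pathway with other names were present as well. The 17 matched proteasome partners were all at 1 TPM or more throughout, and their median was 15.6 ± 5.42 TPM (SD, n = 3). Pomp, the maturation factor of the core, had 21.6, 12.5 and 14.1 TPM, and the ubiquitin receptor Adrm1 22.5, 11.1 and 17.6 TPM. All 8 genes of the ubiquitin and unfoldase list reached 1 TPM, with a median of 30.6 ± 16.7 TPM, as did all 8 of the NRF1 list, with a median of 13.3 ± 4.84 TPM, in which Ddi2 stands as in the partner list and Nfe2l1 had 36.4, 21.3 and 27.8 TPM. In the interferon list, all 9 of which reached 1 TPM, the median was 22.5 ± 5.86 TPM, and Tap1, opposed by Psmb9, had 22.2, 13.7 and 15.3 TPM. Of the genes tested, 10 of 17 partners, 5 of 8 ubiquitin genes, 2 of 8 NRF1 genes and 5 of 9 interferon genes differed between libraries beyond counting noise by the chi-square test described next, which called 59.6% of all genes.

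Between the replicates most proteasome genes shifted the same way, as did most genes. In TPM, 42 of the 43 that passed the count filter were highest in replicate 1, where 82.0% of protein-coding genes were. The median log2 ratio of replicate 1 to the mean of the other libraries was 1.05 over the 43 genes and 0.75 over the protein-coding genes tested. Psmb9 was the exception, at -0.23. Scaling TPM over unopposed protein-coding genes alone moved the median of those genes tested to -0.10 and that of the proteasome genes to 0.19. Then 23 of the 43 were highest in replicate 1 (24.2% of protein-coding genes were), so the size of the shift depends on the scaling.

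A chi-square test of counts against library size, with edgeR's TMM scaling and Benjamini-Hochberg adjustment, called 32 of the 43 beyond counting noise, where 59.6% of all 9469 genes tested were called. Psmb9 had the smallest adjusted p, 6.66e-21, followed by Psma7 at 2.03e-14 and Psmb4 at 6.77e-14. Psmb6, Psmb7 and Psmb10 were not called, with adjusted p of 0.0805, 0.264 and 0.371. These counts move with the scaling and the libraries. With library totals in place of TMM 42 of the 43 were called, Psmb6, Psmb7 and Psmb10 among them (75.2% of all genes). Without replicate 1 the test called 13 of 43 (25.6% of all genes), without replicate 2 it called 20 of 46 (42.4%) and without replicate 3 it called 30 of 45 (47.3%). Among unopposed genes alone it called 13 of 26 (36.9%). Against the trend of dispersion over all genes (edgeR, Benjamini-Hochberg), 0 of the 43 were called, where 0.253% of all genes were. At an unadjusted p under 0.05 the trend test called 0 of the 43 and 610 of all genes. DESeq2 marked 0 of the 43 as dispersion outliers, and only 4 of all 9469 genes. A count of 0 does not show that these genes did not vary. The lowest unadjusted p among the proteasome genes in the trend test was 0.0598, for Psmb5.

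To see which genes departed from the core, each level was taken relative to the median of the 14 standard core genes of its library. Over the 46 genes that reached 1 TPM in any library the median SD between libraries was 0.67 before and 0.24 after, on the log2 scale, and 44 of them had a smaller SD than before, all but Psmb9 and Psmc1. Of the 46, 14 are the reference itself. Without these, 27 of the 29 that passed the count filter had a smaller SD, where 63.0% of protein-coding genes did, and their median SD was 0.59 before and 0.25 after, against 0.50 and 0.37 over protein-coding genes. The same centring thus narrowed most genes of any kind. Of the 46, only Psmb9 at 0.89, Psmg2 at 0.70 and Psmg4 at 0.68 had an SD over 0.5, and the next was Psmb5 at 0.48. Psmg2 and Psmg4 did not pass the count filter. Of the 29 that passed it and are not the reference, 28 were under 0.5, where 68.7% of protein-coding genes that passed it were. Psmb9 lay at -0.92, 0.86 and -0.10 relative to the core in replicates 1, 2 and 3, and Psmb5 at -0.31, -1.26 and -0.74. With library sizes set to the summed counts of the proteasome genes, 18 of the 43 were beyond counting noise (56.4% of all genes were), and Psmb9 again had the smallest adjusted p in the chi-square test, 1.98e-42, before Psmd7 at 2.47e-10 and Psmc1 at 2.94e-07.

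**Figure D3:**
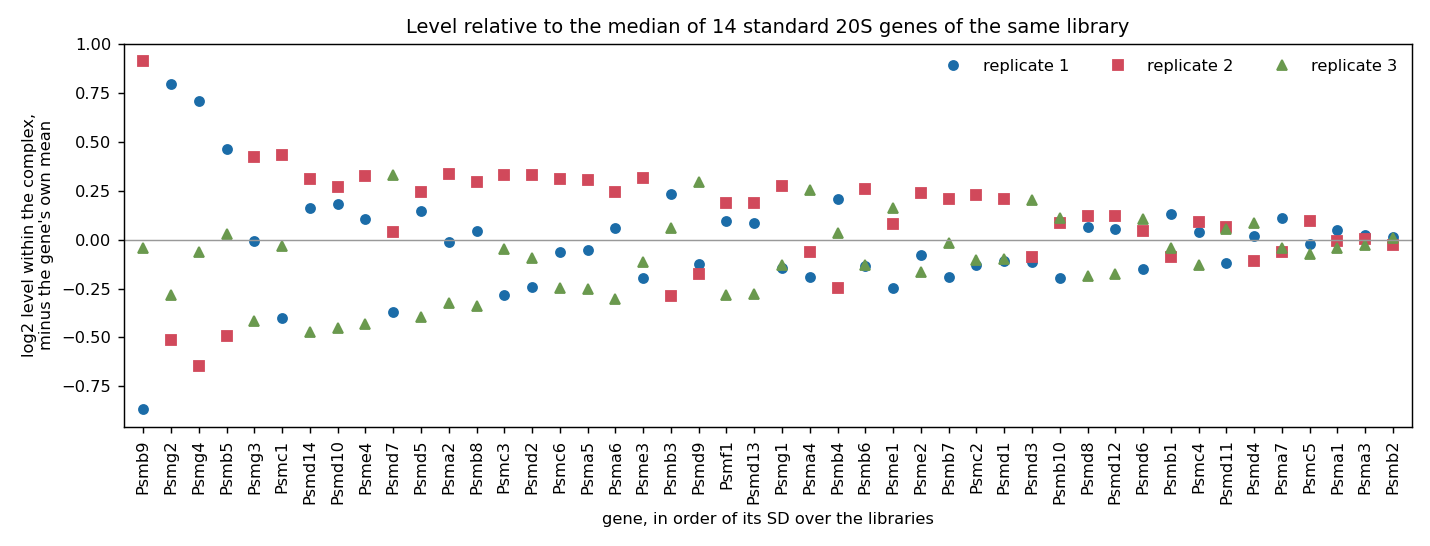
Log2 level of 46 proteasome genes relative to the median of 14 standard core genes of the same library, minus the gene's own mean over the 3 libraries, in order of the SD. Psmb9 stands apart with replicate 2 high and replicate 1 low, and Psmg2, Psmg4 and Psmb5 with replicate 1 high and replicate 2 low.

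The opposed genes were set beside their partners. Of 11 pairs, 10 had over 3 partner counts, and the partner had more counts per exon base in 5 of them. Gm20496, an antisense gene over 186 exon bases of Psmb8 (chromosome 17, 34197721 to 34201454), had 3007, 2806 and 2857 counts, against 250, 99 and 84 for Psmb8, a ratio per base of 82.6. Gm12356 exceeded Psmd3 13.2-fold, Nek6 Psmb7 7.23-fold, AY074887 Psma4 4.42-fold and Gm26745 Psmd9 1.86-fold per base. Most partners did not share the excess of replicate 1. The count of replicate 1 over the mean of the others had a median of 2.20 for the 10 proteasome genes and 1.02 for their partners, and 2.63 (range 1.72 to 5.91) for the 29 unopposed proteasome genes with at least 30 counts in all, against 1.46 for the library totals.

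The pair of Psmb9 and Tap1 had the reverse pattern. Psmb9 (chromosome 17, 34181988 to 34187764, minus strand) had 321, 368 and 250 counts and Tap1, over 212 shared exon bases, 266, 141 and 142. The count of replicate 1 over the mean of the others was 1.04 for Psmb9 and 1.88 for Tap1. Psmb9 thus varied over the libraries like the other-strand partners of the remaining pairs, and Tap1 like the proteasome genes. The exon models of Psmb9 in the count tables span 3659 bases, 2.71 times its principal transcript. Psmb9 and its part in the catalytic sums are uncertain for these reasons, and the part of the overlap in its values was not tested.

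**Figure D4:**
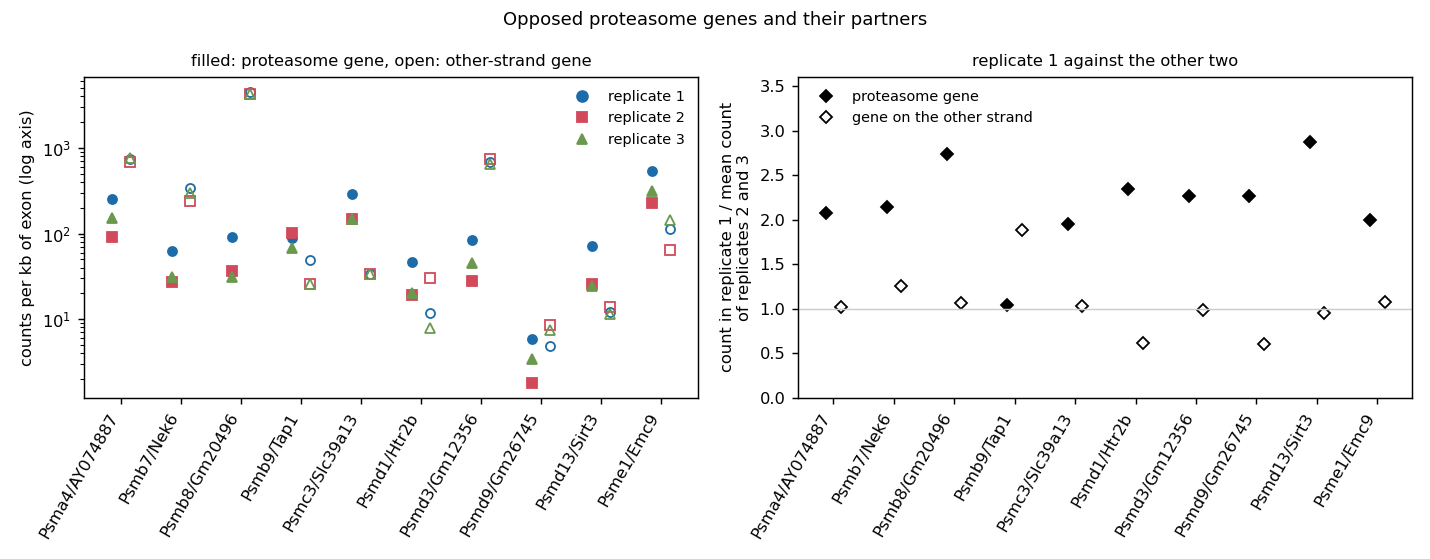
Left, counts per kb of exon (log axis) of opposed proteasome genes (filled) and of the gene on the other strand (open) in each library; right, the count of replicate 1 over the mean count of replicates 2 and 3. In 9 of the 10 pairs the proteasome gene has the higher ratio on the right, and Psmb9 with Tap1 is the exception.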

How the data were processed

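The authors deposited 1 table of raw counts per library. Per the file headers, read pairs from an alignment step named star2, run in a stranded paired-end mode, were counted over exons with featureCounts v1.4.6-p4 and GENCODE vM13 gene models on mm10, with both reads aligned, strand setting 1 and no option for reads that map to several places. Copies of a gene can therefore lose reads. A time point of 2 hours stands in the headers alone. The assay is total RNA-seq per the labels, which link a poly(A)+ protocol.

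Symbols and biotypes came from GENCODE vM21 by gene identifier (99.56% matched). TPM was computed over all genes from the counts and the exon length in the files. edgeR 4.0.16 under R 4.3.3 (filterByExpr at a minimum count of 10, TMM, intercept only) gave the trend test, a one-sided chi-square test of the deviance with 2 degrees of freedom, and DESeq2 1.42.0 was the alternative. Both tests were adjusted at 0.05 over all genes tested. They were also run on simulated data, where each missed part of the changes put in. Promoter sequences are from RefSeq. All 48 members are in the plot of TPM by subcomplex. The text gives levels for the catalytic and activator genes, the highest and lowest of each subcomplex, and some of the other opposed or called members. Called members without a level in the text include Psmc4, Psmd6, Psmd8, Psmd12 and the opposed Psmd3. The members and lists were chosen with earlier results of these data known. No protein sequences were used here.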

Additional observations from a re-analysis of the deposited data

How the results depend on the processing

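Depth limits the low members: at the floor of 3 counts a gene of 1 kb lies at 1.37, 1.60 and 1.77 TPM in replicates 1, 2 and 3, and Psmb5 rested on 20 counts in replicate 2. No paired analysis was possible because the series has 1 group. The log2 ratio of Psmb8 to Psmb5, -0.14, turned to 1.51 in CPM without length and to 0.66 with principal transcript lengths, an alternative chosen after seeing the data, and ranged from -0.53 to 0.074 with 1 library left out. That of Psmb9 to Psmb6, -0.18, turned to 0.78 and 0.022 under the same choices and ranged from -0.51 to 0.18. That of Psme2 to Psme3, -0.15, turned to 0.57 with principal lengths and lay between -0.90 and -0.12 otherwise. The mean ratios of Psmb10 to Psmb7 and Psme1 to Psme3 kept their direction under all alternatives run, from -1.74 to -0.50 and from 0.11 to 1.37. Psmb7 and Psme1 are opposed, as are Psmb8 and Psmb9, and no alternative run for the ratios left out the shared exon bases. The 32 members beyond counting noise (59.6% of all genes) became 42 with library totals (75.2%) and 30 with DESeq2 size factors (5427 of 9469 genes). Without the filter they were 35 of 48 (6816 of 19067 genes), and with totals over the members 18 (56.4%). Among unopposed genes only they were 13 (36.9%, fewer genes tested, added after seeing the data). With 1 library left out they were 13 to 30 (25.6% to 47.3%), where the cause was not tested. The median of 33.5 TPM became 183 when TPM was scaled over unopposed protein-coding genes, which by construction raises all values. The count of members at 1 TPM was 35 at a threshold of 10 TPM and 45 or 46 under the other alternatives. It was 47 with Psmc3ip and Psme2b added, which are not members. No member was beyond the dispersion trend under any alternative run, but few genes of any kind were. The calls ranged from 3 of 10139 genes without replicate 2 to 54 of 4407 among unopposed genes only. So few calls say little about the members.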

Other observations

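Genes named for the proteasome but outside the rule were also measured. Psmc3ip, which takes part in meiotic recombination and is opposed by Mlx, had 165, 93.0 and 191 TPM in replicates 1, 2 and 3. Psme2b, a close copy of Psme2, had 10.4, 13.4 and 6.33 TPM from 19, 21 and 9 counts. The pseudogenes Psmb5-ps, Psmb6-ps, Psmb6-ps2 and Psmb7-ps2 had no count in any library.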
